A study of Mus musculus with 2 samples.

Results

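NR2F-positive, Myl2-low cardiomyocytes were examined in the hearts of mouse embryos at E11.5, mid-gestation. The working name for these cells was atrial-like cardiomyocytes. They were chosen by measured values from the cells for which the authors deposited embedding coordinates. A cell entered when Tnnt2, Myh6, Myh7, Actc1 and Myl7 together made up at least 2% of its unique molecular identifiers (UMIs, each counting 1 captured RNA molecule), Myl2 was under 1000 CPM (a gene's UMIs per 1000000 UMIs, here of the cell), and at least 1 UMI of Nr2f1 or Nr2f2 was present. Cells with 3 or more of the outflow and second-field genes Rspo3, Bmp4, Sema3c, Isl1 and Rgs5, or with 4 or more of the endothelial genes Pecam1, Cdh5, Tie1, Emcn, Egfl7 and Esam, were left out. The rule found 141 cells among 11640 embedded cells and 27999 deposited barcodes, 126 in the control library and 15 in the H2CKO library.

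Each genotype was measured in 1 single-cell library of dissociated whole hearts, made with 10x Genomics 3′ chemistry. The control embryos were Hand2fx/+ R26RmTmG/wt, with 1 floxed Hand2 allele, 1 copy of the mTmG reporter and no Cre. The H2CKO embryos were Nfatc1Cre/wt Hand2fx/fx R26RmTmG/wt, so both genotypes carried the reporter and at least 1 floxed allele. Nfatc1-Cre acts in the endocardium, the inner lining of the heart, and cardiomyocytes are not its target. The number of embryos in each library is not given in the labels, and with 1 library per genotype no difference below has a replicate check or a test.

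Atrial and ventricular cardiomyocytes share most contractile genes but differ in myosin light chains, ion channels, natriuretic peptides and transcription factors. Nr2f1 and Nr2f2 encode orphan nuclear receptors (COUP-TFI and COUP-TFII), and Nr2f2 is needed in mice for the atrial identity of cardiomyocytes. Between atrium and ventricle lies the atrioventricular canal, whose muscle expresses Bmp2 and the T-box repressors Tbx2 and Tbx3, which hold back chamber genes such as Nppa, the gene of atrial natriuretic peptide.

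The promoters of 3 genes that the results turn on are given first, because Nppa set cells apart within the group while Cav1 and Cobl were within 2-fold between its subsets. Each is the 250 bases before a start of the gene from RefSeq on GRCm38.p6 (for Cobl and Cav1, the start furthest upstream), read 5′ to 3′ on the gene's strand. Capitals mark the T-box half-site AGGTGT or its reverse complement ACACCT.
Nppa, chr4:148000472-148000721, plus strand: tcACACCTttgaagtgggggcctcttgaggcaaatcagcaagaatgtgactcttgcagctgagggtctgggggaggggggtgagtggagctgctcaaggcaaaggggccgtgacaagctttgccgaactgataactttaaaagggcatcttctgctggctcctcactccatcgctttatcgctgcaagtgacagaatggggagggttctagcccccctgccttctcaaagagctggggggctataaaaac
Cobl, chr11:12464961-12465210, minus strand: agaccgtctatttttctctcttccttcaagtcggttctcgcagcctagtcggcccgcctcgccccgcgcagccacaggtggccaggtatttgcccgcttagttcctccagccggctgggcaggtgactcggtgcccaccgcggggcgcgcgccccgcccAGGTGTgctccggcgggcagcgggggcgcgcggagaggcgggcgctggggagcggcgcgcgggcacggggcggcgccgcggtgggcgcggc
Cav1, chr6:17306085-17306334, plus strand: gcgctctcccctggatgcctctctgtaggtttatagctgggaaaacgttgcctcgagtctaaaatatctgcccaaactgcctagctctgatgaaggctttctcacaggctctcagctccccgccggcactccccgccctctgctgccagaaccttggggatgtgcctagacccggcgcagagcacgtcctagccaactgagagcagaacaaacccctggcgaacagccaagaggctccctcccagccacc
In the Nppa window the half-site began 248 bases before the start, and in the Cobl window 91 bases before it. The Cav1 window held neither this motif nor the nuclear receptor half-site AGGTCA or its reverse complement TGACCT. Cobl and Cav1 each have another RefSeq start, with windows at chr11:12412141-12412390 and chr6:17307390-17307639, and neither motif was found in these. The T-box half-site was present on either strand in 11.8% of 32851 promoter windows of this length, and the nuclear receptor half-site in 14.0%. These matches describe the letters only.

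The cells were scarce in the H2CKO library. They made up 2.33% of embedded control cells (95% exact binomial interval 1.94 to 2.77) and 0.241% of embedded H2CKO cells (0.135 to 0.397). The control share was 9.68 times the H2CKO share (5.65 to 17.8), an interval that covers counting error only. Of cells at or above the sarcomere limit, the shares were 5.44% (4.55 to 6.44) of 2317 control cells and 0.386% (0.216 to 0.636) of 3888 H2CKO cells. Cells below the Myl2 limit already numbered 219 in the control and 63 in H2CKO, and 144 and 18 of them had an NR2F UMI. The outflow limit alone removed 15 control cells and 3 H2CKO cells. Cells at or above the Myl2 limit that met the outflow and endothelial limits, called ventricular-like here, numbered 1702 and 3433. Library and genotype cannot be told apart here.

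The cells carried both NR2F genes in most cases. Of the control cells, 94 had UMIs of both genes, 20 of Nr2f1 alone and 12 of Nr2f2 alone; in H2CKO the counts were 9, 3 and 3. Nr2f1 (chr13:78188973-78199757, GRCm38) was at 154 CPM in the control, over the summed UMIs of all its member cells, and at 74.8 CPM in H2CKO. Nr2f2 (chr7:70351944-70366735) was at 119 and 70.4 CPM. These levels follow from the rule and are a description. A single NR2F UMI admitted 8 control cells and 5 H2CKO cells. An NR2F UMI was also found in 11.6% and 7.34% of ventricular-like cells, and in 1.20% of 2740 control and 0.668% of 5240 H2CKO erythroid cells, which should lack these genes. Erythroid cells were those with at least 50% haemoglobin UMIs, with medians of 18479 and 13163.5 UMIs per cell. At the rule's edges, Myl2 reached 997 CPM inside and began at 1059 outside in the control, and the figures for H2CKO were 836 and 1043. The sarcomere share began at 2.03% inside and ended at 1.61% outside in the control, and at 2.63% and 1.77% in H2CKO.

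Depth differed between the libraries. Median UMIs per member cell were 19910 in the control and 13243 in H2CKO, with medians of 4214.5 and 3478 genes and of 5.17% and 7.37% mitochondrial UMIs. The summed UMIs were 2564951 and 227397, so 20 UMIs corresponded to 7.80 CPM in the control and to 88.0 CPM in H2CKO. None of the 57 barcodes found in both libraries belonged to these cells. Hand2, the targeted gene (chr8:57320983-57324633), was at 101 CPM in the control cells (88.7 to 114, 95% exact Poisson) and at 88.0 CPM (53.7 to 136) in the H2CKO cells, values within counting error of each other. The labels do not say which part of the gene is deleted, so this level does not check the genotype in cells outside the Cre domain. GFP, the reporter's product once Cre has recombined it, gave 30 UMIs in 25 control cells (11.7 CPM) and 3 UMIs in 2 H2CKO cells (13.2 CPM), against 0.535 and 6.12 CPM in erythroid cells. The control carries no Cre, so these GFP UMIs are no measure of recombination. Tomato, the reporter's product before recombination, gave 43 UMIs in 36 control cells and 1 UMI in 1 H2CKO cell. It was at 1.32 and 0.422 CPM in erythroid cells. The single H2CKO UMI is too few to read a difference.

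Against ventricular-like cells of the same library, the control cells carried the genes of atrial muscle. Of 14 genes in the atrial list, 12 were past the minimum of 20 CPM and 20 UMIs, 11 were over 2-fold higher and none lower, with a median log2 ratio of CPM plus 5 of 1.91. Over all 5808 genes past that minimum, the genes of the rule left out, 128 (2.2%) were over 2-fold higher, 66 (1.14%) were over 2-fold lower and the median was -0.03. Cav1, which encodes the caveolae protein caveolin-1, was at 127 CPM against 2.54 CPM in ventricular-like cells. Stard10, a lipid transfer protein gene, was at 232 against 9.79 CPM, and Myl1, an essential myosin light chain gene, at 2014 against 276 CPM. Nppa was at 3509 against 926 CPM and Tbx5, a T-box activator of chamber genes that is graded toward the inflow, at 149 against 35.9 CPM. Myl4, the atrial essential light chain, was at 13892 against 6886 CPM. The remaining gene of the list past the minimum, Angpt1, had a log2 ratio of 0.50. The ventricular list gave the reverse picture, with 7 of 9 genes past the minimum over 2-fold lower, 1 higher and a median of -2.67.

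In the H2CKO cells most ventricular genes were lower too, while the atrial list was split. Of 9 ventricular genes past the minimum, 8 were over 2-fold lower than in ventricular-like cells of that library and 1 was higher, with a median log2 ratio of -2.88, or -1.98 with genes at 0 UMIs set to 3 UMIs. Of 7 atrial genes past the minimum, 3 (Cav1, Tbx5 and Myl1) were over 2-fold higher and 3 (Nppa, Angpt1 and Pam) over 2-fold lower, with a median of 0.14. Over all 3413 genes past the minimum in H2CKO, 116 (3.4%) were higher and 281 (8.23%) lower, with a median of -0.16. The libraries were not compared over the same atrial genes, since 12 passed in the control and 7 in H2CKO. In H2CKO a gene higher in member cells needed 20 UMIs, or 88.0 CPM, which left out Stard10 at 57.2 CPM from 13 UMIs. A gene lower in them could pass through the ventricular-like cells, as Angpt1 did with 0 UMIs in member cells. The split of the list in H2CKO thus depends on the minimum, and the cells are named here by the rule. Sln, the sarcolipin gene and an atrial marker, was below the minimum, at 17.5 CPM in the control (45 UMIs in 28 of 126 cells) and at 61.6 CPM in H2CKO (14 UMIs in 5 of 15 cells). Myl7, the atrial regulatory light chain that the rule counts, was at 20101 and 19763 CPM.

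A small set of genes separated the cells from ventricular-like cells in both libraries. Of 3346 genes past the minimum in both, 20 (0.598%) were over 2-fold higher in each library and 28 (0.837%) over 2-fold lower in each, or 24 with genes at 0 set to 3 UMIs. Ranked by the smaller of both ratios, Cav1 was the highest, with log2 ratios of 4.13 in the control and 4.23 in H2CKO. In single control cells Cav1 ranged from 0 to 341 CPM with a median of 109, and in H2CKO cells from 0 to 384 with a median of 97.1, so the libraries overlapped over nearly the whole range. Cav1 was detected in 82.5% of control cells and 86.7% of H2CKO cells, against 0.255% and 0.286% of erythroid cells. Cpne5, a copine gene, had log2 ratios of 2.35 and 2.54. Itga6, which encodes the laminin-binding integrin α6, had ratios of 2.27 and 2.84. Cobl, an actin nucleator gene, had 1.76 and 1.91, and Tbx5 had 1.91 and 1.66. Cox6a2, the muscle form of a cytochrome oxidase subunit, had 1.61 and 1.57, and Fhl2, a LIM-domain gene of the ventricular list, had 1.46 and 1.39. Dhrs7 had 1.5 and 2.07. Myl1 had 2.85 and 1.41, and Cacna2d2, an auxiliary calcium channel subunit gene, had 1.71 and 2.24. Bmp2 and Igfbp5, an insulin-like growth factor binding protein gene, were further from ventricular-like cells in H2CKO, at 2.31 and 4.98 for Bmp2 and at 1.36 and 3.17 for Igfbp5.

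**Figure D1:**
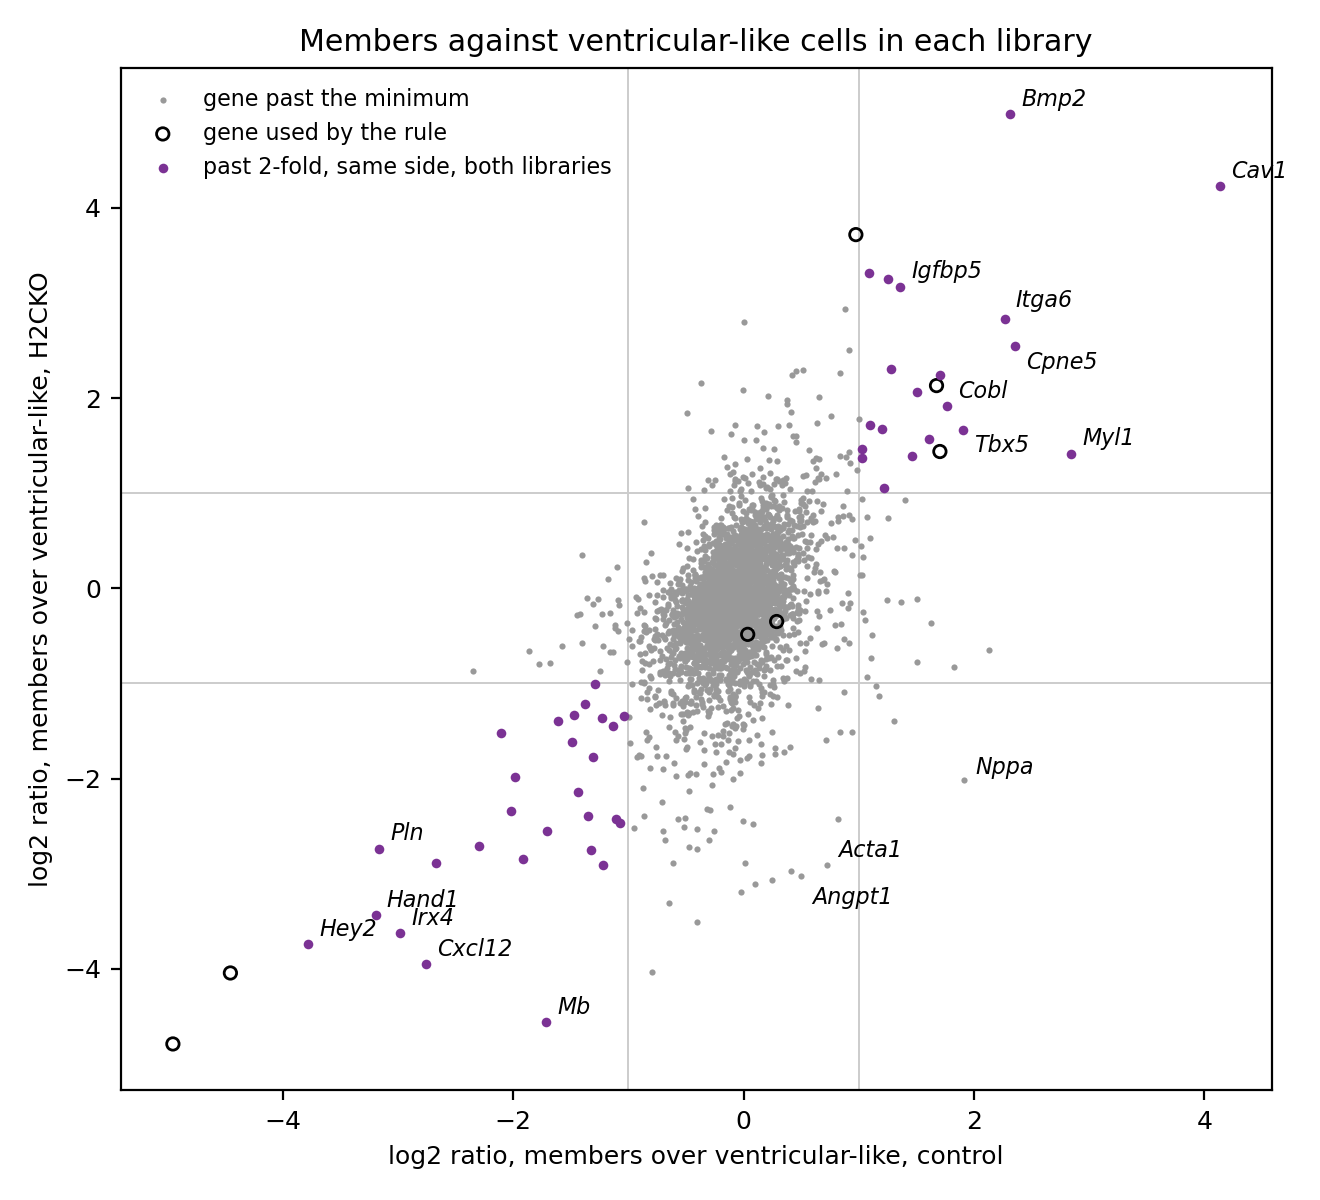
Each point is a gene past the minimum in both libraries, with its log2 ratio of CPM plus 5, member cells over ventricular-like cells, in the control (horizontal axis) and in H2CKO (vertical axis). Cav1, Itga6 and Cpne5 were high in both libraries and Hey2, Hand1 and Irx4 low in both, whereas Nppa was at 1.92 in the control and -2.01 in H2CKO; open circles are genes used by the rule.

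Genes low in the cells of both libraries were led by ventricular transcription factors. Hey2, a repressor of the compact ventricular wall, gave 2 UMIs in the control cells (0.78 CPM, 0.0944 to 2.82) and none in H2CKO, against 74.2 and 61.8 CPM in ventricular-like cells. In H2CKO this was at least 4.68-fold lower, taking 3 UMIs over the library's member cells as the floor. Irx4, a ventricular homeobox gene, was at 2.34 CPM in the control and at 0 UMIs in H2CKO, at least 4.29-fold lower there. Hand1, a factor of the left ventricle, was at 3.51 CPM and at 0 UMIs, at least 3.73-fold lower in H2CKO. Pln, which encodes the calcium pump inhibitor phospholamban, was 9.37-fold and 6.84-fold lower than in ventricular-like cells. Free RNA was measurable for Pln, in that 26.2% of control and 26.9% of H2CKO erythroid cells had a Pln UMI. Myl3, the ventricular essential light chain, was at 2088 and 1363 CPM against 6805 and 8031 CPM. Cxcl12, Mpped2, Krt19, Gja1, Lbh, Lmcd1 and Mb completed the 12 genes named, with log2 ratios from -1.71 to -2.76 in the control and from -1.98 to -4.56 in H2CKO. Lmcd1 gave 0 UMIs in H2CKO and was not past 2-fold at 3 UMIs. Mb, the myoglobin gene, rested on 1 UMI in H2CKO (4.40 CPM, 0.111 to 24.5).

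Within the control cells, 2 kinds of profile were seen. Nppa ranged from 0 to 28428 CPM with a median of 2021; 87 of 126 cells were at 1000 or more and 22 were below 100. Bmp2 was detected in 28 cells, Tbx3 in 23 and Tbx2 in 19, and the median of each was 0. Nppa and Stard10 were positively related (Spearman rho 0.44 over 126 cells of 1 library, as a description). After these values had been seen, the cells were split by whether at least 2 of Tbx2, Bmp2 and Tbx3 were detected. In the control, 22 cells (17.5%, 11.3 to 25.2) met this, 104 did not, and 87 had none of the 3 genes. Ventricular-like cells met it in 7.34% of control and 5.24% of H2CKO cells. Median depth was alike in both control sets, at 19639 UMIs per cell with at least 2 of the genes and 19910 with fewer.

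The 22 control cells differed from the other 104 in chamber genes, as a description of cells chosen by 3 genes. Nppa was at 254 CPM (211 to 303) in the 22 cells and at 4259 CPM (4171 to 4349) in the 104. Stard10 was at 89.5 and 265 CPM, and Acta1, the skeletal actin gene, at 269 and 1194 CPM. Angpt1, the angiopoietin-1 gene, was at 10.4 and 103 CPM, and Nppb, the gene of the B-type natriuretic peptide, at 74.96 and 437 CPM. Igfbp5 was at 1743 against 203 CPM, Cacna2d2 at 377 against 40.3 CPM and Tgfb2, a growth factor gene active at the cardiac cushions, at 299.9 against 41.7 CPM. Cav1, by contrast, was at 129 and 127 CPM, and Cobl at 133 and 96.9 CPM. Of the other genes high in both libraries against ventricular-like cells, Myl1 was at 1143 and 2215 CPM and Bmp2, used for the split, at 462 and 16.8 CPM. The Nppa level of the 22 cells rested on 2 of them, which held 109 of the 122 UMIs, and the other 20 were at 30.5 CPM, near the 21.6 CPM of control erythroid cells, a measure of free RNA. Markers of other cells and genes induced by dissociation differed too. The mesenchymal gene Col3a1 was at 77.0 and 17.7 CPM and the endothelial gene Kdr at 35.4 and 0.96 CPM. Fos was at 156 and 45.1 CPM and Ier3 at 95.8 and 14.9 CPM, while the erythroid gene Hbb-y was lower in the 22 cells, at 1774 and 2089 CPM. The part of these transcripts in the split was not tested. Over 4672 genes past the minimum, 221 (4.73%) were over 2-fold higher in the 22 cells and 119 (2.55%) over 2-fold lower.

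**Figure D2:**
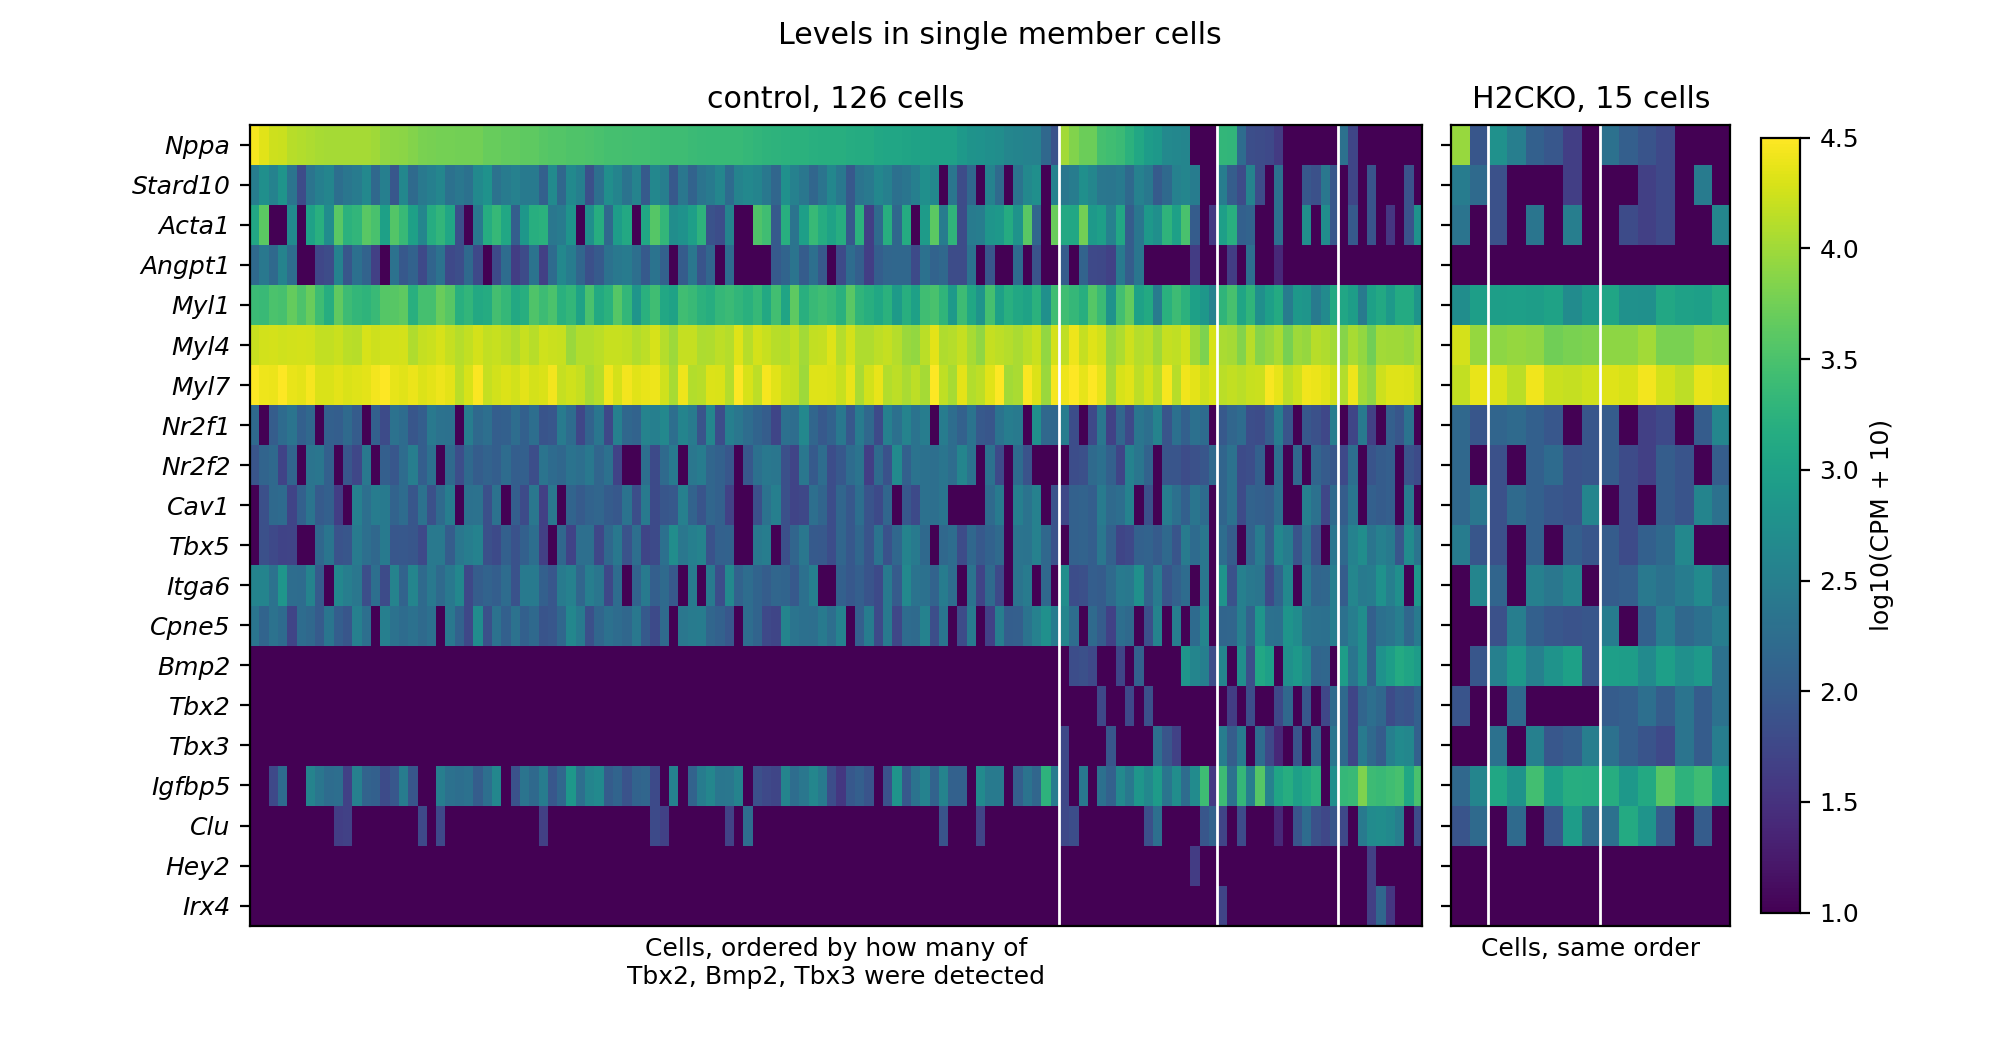
Each column is a member cell and each row a gene, coloured by log10 of CPM plus 10; cells run from those with none to those with all 3 of Tbx2, Bmp2 and Tbx3 detected (white lines), then by Nppa, and the H2CKO panel is drawn wider per cell. Nppa, Acta1 and Angpt1 fade where Bmp2 and Igfbp5 appear, Myl7 is high in every cell, and Cav1, in 104 control and 13 H2CKO cells, and Tbx5, in 113 and 11, appear on both sides of the lines; the 87 control cells left of the first line have none of the 3 genes, and the H2CKO panel, with no such cell, begins with the 2 cells that have 1 of them.

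Nearly all H2CKO cells had the second profile. At least 2 of the 3 genes were detected in 13 of 15 H2CKO cells (86.7%, 59.5 to 98.3), and all 3 in 7 of 15, against 9 of 126 control cells. No H2CKO cell had none of them, which with 15 cells allows a share of up to 21.8% (exact binomial). The control held 22 cells with at least 2 of the genes and H2CKO held 13, a share of embedded cells of 0.407% and 0.209%. The cells with fewer than 2 numbered 104 and 2. Detection depends on depth, so each cell was also thinned to 5000 UMIs, which all 141 cells reached. Bmp2 was then detected in 15.9% of control cells (9.97 to 23.4) and 86.7% of H2CKO cells (59.5 to 98.3), compared with 22.2% and 93.3% before thinning. Stard10 went the other way, in 83 of 126 control cells (56.9% to 74.1%) and 3 of 15 H2CKO cells (4.33% to 48.1%) after thinning. In thinned erythroid cells the shares were 0.819% and 0.385% for Bmp2 and 0.298% and 0.304% for Stard10.

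With this makeup, the summed H2CKO cells differed from the summed control cells in many genes. Of 4061 genes past the minimum, 97 (2.39%) were over 2-fold higher in H2CKO and 480 (11.8%) over 2-fold lower, and the median log2 ratio was -0.26. With ratios centred on that median the counts were 188 and 308. Of the lower genes, 39 had 0 UMIs in H2CKO, and 450 were over 2-fold lower with genes at 0 set to 3 UMIs. The minimum was reached at a lower level by genes high in the control, and with a minimum of 100 CPM for both sides the counts were 74 (4.4%) higher and 81 (4.82%) lower of 1681. In ventricular-like cells of the same libraries, 15 genes (0.267%) were higher and 37 (0.66%) lower among 5609. The difference between these ratios was 1 or more in size for 308 of 3847 genes (8.01%), upward in 75 (1.95%) and downward in 233 (6.06%).

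Atrial chamber genes were lower in H2CKO. Of 11 genes of the atrial list past the minimum, 7 were over 2-fold lower and none higher, beside 11.8% and 2.39% over all genes compared, with a median of -1.93. A gene higher in H2CKO needed 20 UMIs there, or 88.0 CPM, which left out Sln, whereas a gene higher in the control could enter at 20 CPM. With a minimum of 100 CPM for both sides Angpt1, Gja5 and Hey1 drop out. Nppa, Stard10, Pam and Myl1 stay among the lower genes, beside 4.82% lower over all genes. With genes at 0 set to 3 UMIs, 6 were over 2-fold lower, Hey1 no longer, and the median was -1.29. Nppa stood at 3509 CPM in control cells (3437 to 3582) and at 651 CPM in H2CKO cells (550 to 765), giving a log2 ratio of -2.42. In single H2CKO cells Nppa ranged from 0 to 9048 CPM with a median of 75.5, and 126 of the 148 UMIs came from 1 cell. Without that cell the H2CKO level was 103 CPM. Erythroid cells, a measure of free RNA, were at 21.6 CPM of Nppa in the control and 69.3 CPM in H2CKO, and after thinning a Nppa UMI was found in 28.8% of H2CKO erythroid cells and 33.3% (11.8 to 61.6) of H2CKO member cells. In ventricular-like cells Nppa was higher in H2CKO, at 926 and 2638 CPM. Stard10 was at 232 CPM in control cells (214 to 252) and at 57.2 CPM in H2CKO cells (30.4 to 97.8); control cells ranged from 0 to 640 CPM with a median of 232, and 8 of 15 H2CKO cells were at 0. Gja5, the connexin 40 gene of atrial and trabecular muscle, was at 66.7 and 8.80 CPM, the latter from 2 UMIs (fold 0.132, 0.0158 to 0.484). Hey1, a Notch-responsive atrial repressor gene, gave 0 UMIs in H2CKO and was at least 1.98-fold lower. Pam, the peptide-amidating enzyme of atrial granules, was at 589 and 106 CPM. Myl1 was at 2014 and 822 CPM, and all cells of both libraries expressed it, from 254 to 5071 CPM in the control and from 476 to 1363 in H2CKO. Sln went the other way, 3.51-fold higher in H2CKO (1.78 to 6.51), with 12 of its 14 UMIs from 3 cells. Without the 3 highest cells of each library Sln was at 12.03 CPM in H2CKO and 12.7 CPM in the control. That removal takes 3 of 15 H2CKO cells but 3 of 126 control cells and tends to lower H2CKO more, so equal levels are not read from it. Cav1 and Tbx5 did not pass 2-fold, at 127 and 114 CPM and at 149 and 109.9 CPM.

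The 10 lowest genes by ratio included Angpt1, Abcc9, Vash2, Adam19 and Olfm1, each at 0 UMIs in all 15 H2CKO cells. Angpt1 was at 85.4 CPM in the control, detected in 82 of 126 cells, and was at least 6.47-fold lower in H2CKO. Abcc9, the sulfonylurea receptor subunit of cardiac potassium channels, was at least 3.99-fold lower, Vash2 at least 3.87-fold, Adam19 at least 3.13-fold and Olfm1 at least 2.93-fold. Acta1 was at 1021 CPM in control cells (982 to 1061) and at 96.7 CPM in H2CKO cells (60.6 to 146), and Nppb at 369 and 30.8 CPM. Cited1, a transcriptional coactivator gene of ventricular muscle, was at 219 and 21.99 CPM. In ventricular-like cells none of these 8 genes passed 2-fold, with log2 ratios from -0.95 to 0.44. The other two, the predicted genes Gm10260 and Gm11361, also gave 0 UMIs in H2CKO, at least 27.04-fold and at least 2.57-fold lower, and they had log2 ratios of -6.18 and -2.47 in ventricular-like cells.

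**Figure D3:**
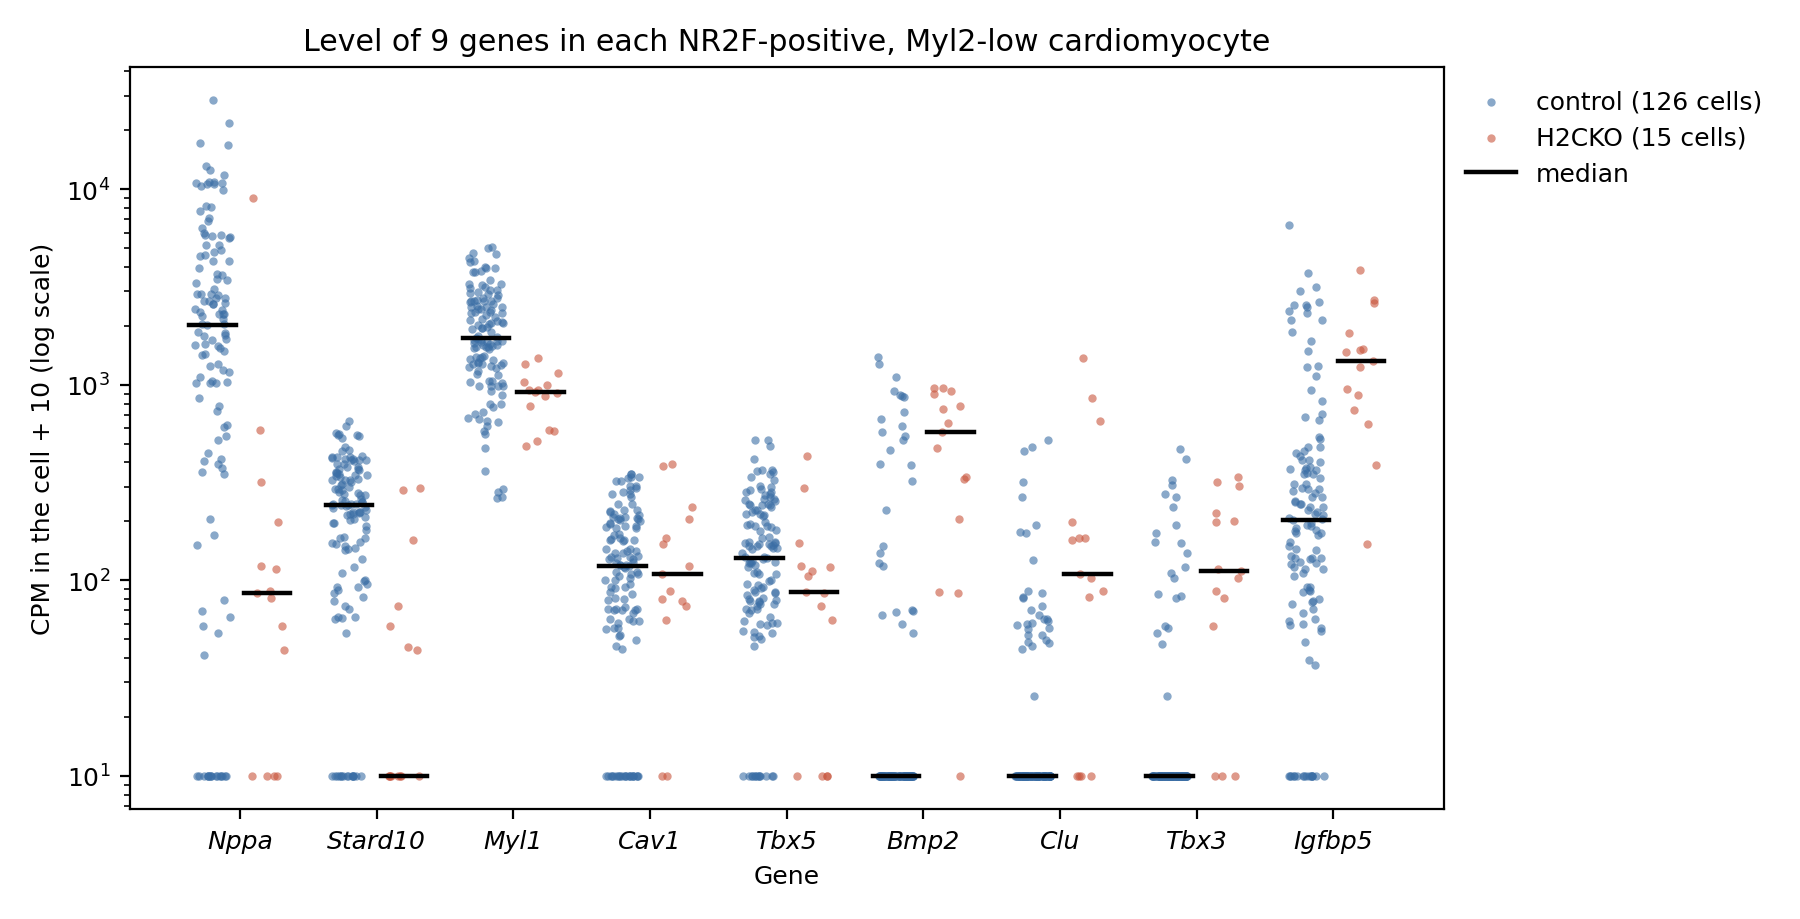
Each point is a member cell, with its level of 9 genes in CPM plus 10 on a log axis; black bars are medians, and points at the bottom are cells with no UMI. Nppa, Stard10 and Myl1 lay lower in the 15 H2CKO cells, Bmp2, Tbx3, Igfbp5 and Clu lay higher, and Cav1 and Tbx5 overlapped.

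Genes of the atrioventricular canal were higher in H2CKO. Of 6 genes in that list, 3 passed the minimum, 2 of these (Bmp2 and Tbx3) were over 2-fold higher and none lower, with a median of 1.97, beside 2.39% higher and 11.8% lower over all genes compared. Bmp2 was at 100.2 CPM in control cells (88.3 to 113) and at 563 CPM in H2CKO cells (470 to 669); H2CKO cells ranged from 0 to 951 CPM with a median of 563, and 14 of 15 expressed it. Tbx3 was at 27.7 and 123 CPM, with 12 of 15 H2CKO cells positive. Tbx2 and Msx2, a BMP-responsive homeobox gene, were below the minimum, with 18 and 14 UMIs in H2CKO and log2 ratios of 2.20 and 1.84. Rspo3, a secreted Wnt enhancer that the outflow limit uses, was at 97.9 and 659.6 CPM, as a description. In the BMP and ERBB list, 3 of 7 genes past the minimum were over 2-fold higher, namely Bmp2 and the BMP target genes Id2 and Id3, and none was lower, beside the same shares over all genes. Id2 was at 167 and 519 CPM and Id3 at 78.8 and 268 CPM. The list median was 0.91.

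The highest gene by ratio was Clu, which encodes the secreted chaperone clusterin. It was at 32.0 CPM in control cells (25.4 to 39.7) and at 356 CPM in H2CKO cells (283 to 443), 11.1-fold higher (8.09 to 15.3), and it was detected in 11 of 15 H2CKO cells and 32 of 126 control cells. The H2CKO median was 97.1 CPM, and 3 cells held 69 of the 81 UMIs. Without the 3 highest cells of each library Clu was at 16.5 CPM in the control and at 79.6 CPM in H2CKO. Tgfb2 was 3.96-fold higher (3.03 to 5.12), at 90.1 and 356 CPM, and was lower in H2CKO in ventricular-like cells, with a log2 ratio of -0.87. In H2CKO 41 of the 81 Tgfb2 UMIs came from 1 cell, and without the 3 highest cells of each library the levels were 70.2 CPM in the control and 126 CPM in H2CKO, no longer past 2-fold. Fabp5, a fatty-acid binding protein gene, was at 193 and 796 CPM, with single H2CKO cells from 0 to 2300 CPM and a median of 192. Without the 3 highest cells of each library the levels were 162 CPM in the control and 319 CPM in H2CKO, no longer past 2-fold. Such a removal takes 3 of 15 H2CKO cells but 3 of 126 control cells, so it tends to lower H2CKO more. The trimmed levels of Clu, Tgfb2 and Fabp5 show how few cells held the UMIs, and no loss of a difference is read from them. Ccdc80 rested on 20 UMIs from 5 H2CKO cells. Tesc, Ier3, Hist1h2bc and Btg2 were at 23.4 to 36.3 CPM in the control and at 109.9 to 158 CPM in H2CKO. Ier3 and Btg2 belong to the list of genes induced by tissue dissociation, of which 4 of 8 past the minimum were over 2-fold higher and none lower (median 0.98), beside 2.39% and 11.8% over all genes compared; the other two were Jun, at 90.5 and 193 CPM, and Junb, at 28.5 and 96.7 CPM, whose log2 ratio was 1.604 and, with cells thinned to 5000 UMIs, where it fell under the minimum, -2.44. The part of dissociation in the other ratios was not tested.

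**Figure D4:**
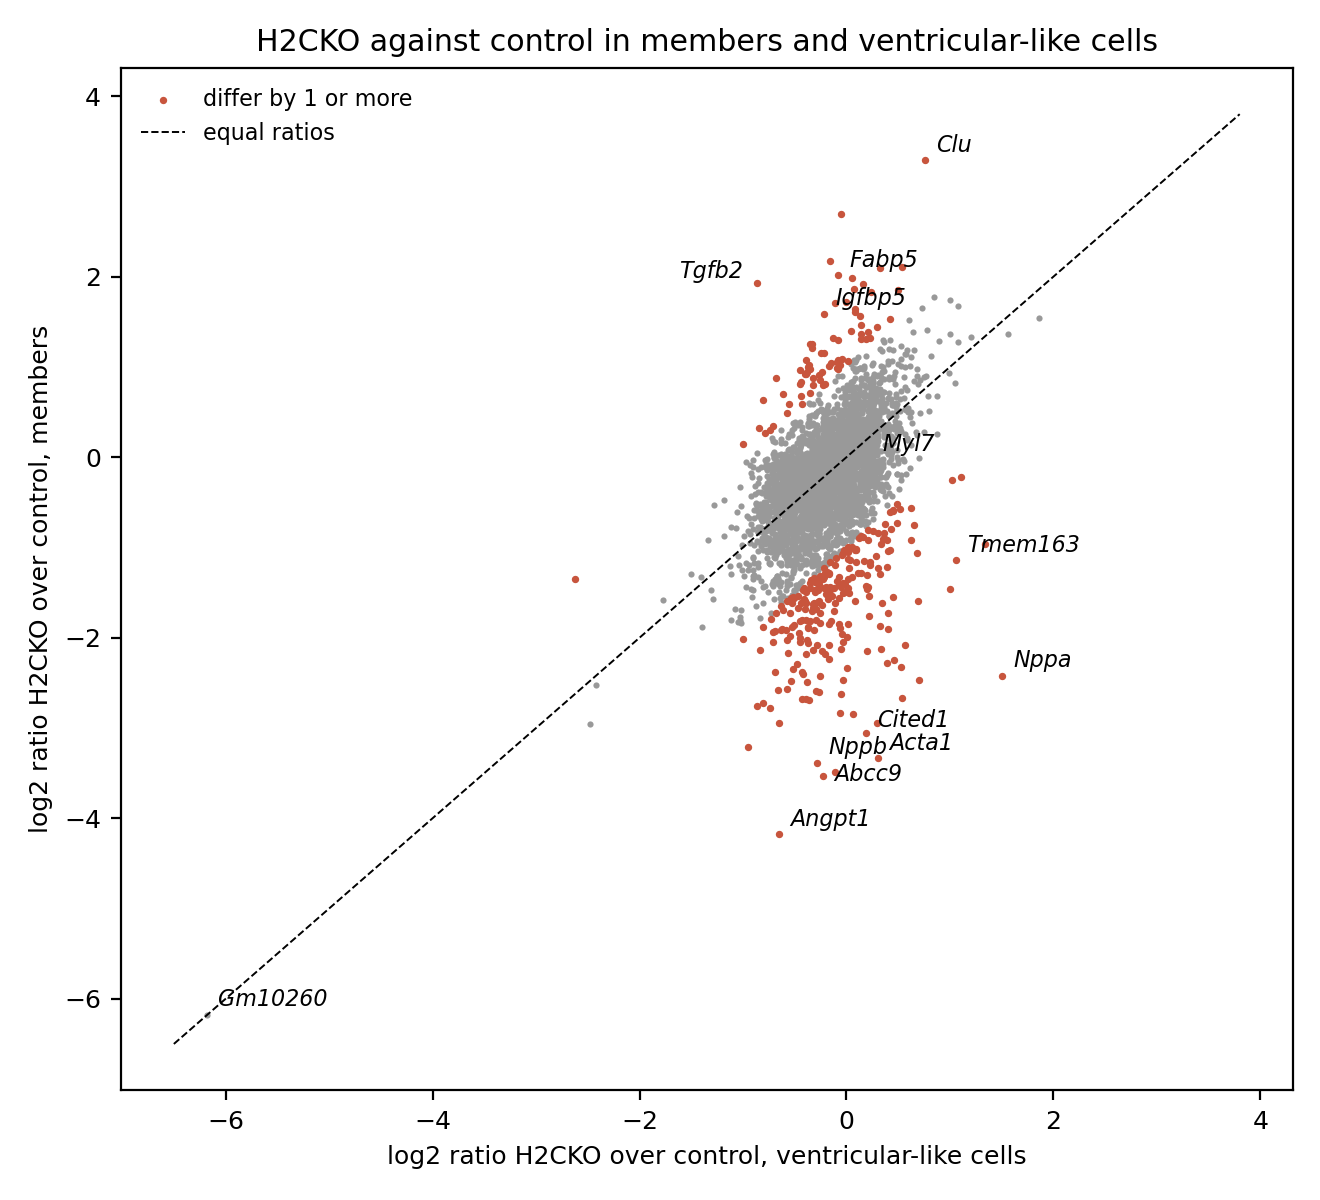
Each point is a gene past the minimum in both kinds of cell, with its log2 ratio of H2CKO over control in ventricular-like cells (horizontal axis) and in member cells (vertical axis). Nppa lay at 1.51 and -2.42, Clu at 0.76 and 3.29, and Gm10260 on the line of equal ratios; red points differ by 1 or more.

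Calcium handling and growth genes varied by gene. The lists below stand beside 2.39% higher, 11.8% lower and a median of -0.26 over all genes compared. Since 20 UMIs are 88.0 CPM in H2CKO, genes under that level in both libraries could be counted lower but not higher. With a minimum of 100 CPM for both sides the shares over all genes were 4.4% higher and 4.82% lower. Of 18 calcium and ion channel genes past the minimum, 7 were over 2-fold lower and 1 higher, with a median of -0.69. Among the lower genes, Casq2, Gja1 and Gja5 were under the minimum of 100 CPM. Ryr2, the calcium release channel of the sarcoplasmic reticulum, was at 379 CPM (356 to 404) and 92.4 CPM (57.2 to 141). Atp2a2, its calcium pump, was at 1479.6 and 659.6 CPM, and Kcne1, a potassium channel subunit gene, was the higher one, at 41.3 and 154 CPM. Of 17 sarcomere genes, 3 (Acta1, Tagln and Ttn) were over 2-fold lower and Tcap, the telethonin gene, was over 2-fold higher, with a median of 0.10. Of 5 genes past the minimum in the list of insulin-like growth factor genes, 1 (Igfbp5) was higher and 2 (Igf2 and Igfbp2) lower, with a median of -0.29. Igfbp5 was at 492 and 1491 CPM and Igfbp2 at 189.9 and 43.98 CPM. Igf2 was at 1069 and 303 CPM in member cells and at 799 and 366 CPM in ventricular-like cells. The 15 oxidative phosphorylation genes past the minimum gave no gene past 2-fold and a median of 0.03. In S phase genes 3 of 10 were lower (Rrm2, Slbp and Mcm4, with a list median of -0.46), all of them under the minimum of 100 CPM. In G2/M genes 1 of 9 was higher (Ccnb1, with a list median of -0.08). None of 15 retinoic acid genes passed the minimum. Among cardiac transcription factors 3 of 13 were over 2-fold lower (Hopx, Zfpm2 and Meis2, with a list median of -0.27). Zfpm2 and Meis2 were under the minimum of 100 CPM and Hopx was not. Of 5 pacemaker and sinus horn genes past the minimum, 2 (Tbx3 and Cacna2d2) were higher and 1 lower. That gene was Tbx18, a factor of the sinus horns, found in 39 control cells and in no H2CKO cell, and it was not past 2-fold at 3 UMIs. The pacemaker gene Shox2 was found in 3 control cells and in no H2CKO cell.

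The comparison was repeated with only the cells in which at least 2 of Tbx2, Bmp2 and Tbx3 were detected (22 control, 13 H2CKO). In these, 31 of 3202 genes (0.968%) were over 2-fold higher in H2CKO and 417 (13%) over 2-fold lower, with a median of -0.27. With only the cells that had all 3 genes (9 control, 7 H2CKO), 34 of 1486 (2.29%) were higher and 213 (14.3%) lower. These cells are part of the members compared above, and the split used 3 of the genes compared and is not independent of them.

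Igfbp5 was at 1743 CPM in control cells (1627 to 1865) and at 1658 CPM in H2CKO cells (1485 to 1846) with at least 2 of the genes, and at 2624.5 and 1839 CPM with all 3. Tbx3 was at 133 and 139.8 CPM, and at 206 and 123 CPM with all 3. Cacna2d2 changed side, at 377 and 259.7 CPM (fold 0.689, 0.496 to 0.943). Hopx and Id2 also changed sign, with log2 ratios of 0.32 and -0.03. Bmp2 was 1.37-fold higher (1.09 to 1.71) and Tgfb2 1.33-fold (1.00 to 1.76), but with all 3 genes the folds were 0.994 (0.738 to 1.33) and 0.643 (0.425 to 0.956). Without the highest cell of each library Tgfb2 was at 228 CPM in the 12 remaining H2CKO cells and at 278 CPM in the 21 remaining control cells, the opposite direction. Clu was 3.12-fold higher (2.20 to 4.44), at 125 and 389.6 CPM, and 1.63-fold higher (1.07 to 2.47) with all 3. In the 13 H2CKO cells 3 cells held 69 of the 78 Clu UMIs, and without the 3 highest cells of each library Clu was at 48.3 CPM in the control and at 72.9 CPM in H2CKO. With all 3 genes and without the 2 highest cells the levels were 160 and 75.3 CPM, the opposite direction. Fabp5 was 2.20-fold higher (1.77 to 2.73), and 1.65-fold (1.20 to 2.26) with all 3. Of its 163 UMIs in the 13 H2CKO cells, 133 came from 3 cells. Without the 3 highest cells of each library Fabp5 was at 274 CPM in the control and at 243 CPM in H2CKO, and with all 3 genes at 205 and 126 CPM, so its direction turned in both sets. The ratios of Clu, Fabp5 and Tgfb2 in these sets thus moved with 1 to 3 cells of each library. Those cells are a larger share of the 13 or 7 H2CKO cells than of the 22 or 9 control cells. Their removal thus tends to lower H2CKO more, and the turns of direction are not read as results.

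Other genes stayed lower in H2CKO in both sets. Pam was at 94.9 CPM in H2CKO and at 304 CPM in the control with at least 2 genes, a fold of 0.312 (0.183 to 0.505), and the fold was 0.242 (0.0924 to 0.539) with all 3. Ryr2, the calcium release channel gene, had folds of 0.350 (0.207 to 0.562) and 0.278 (0.105 to 0.625). Igf2, which was also lower in H2CKO ventricular-like cells, had folds of 0.361 (0.267 to 0.481) and 0.345 (0.221 to 0.522). Without the 3 highest cells of each library, with at least 2 genes, Pam was at 71.4 CPM in H2CKO and 228 CPM in the control. Ryr2 was then at 70.8 and 215 CPM and Igf2 at 254 and 625 CPM. That removal takes 3 of 13 H2CKO cells and 3 of 22 control cells and tends to lower H2CKO more. It is therefore no check on genes that are lower there. With all 3 genes Pam and Ryr2 rested on 7 UMIs each in H2CKO.

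Nppa and Stard10 were low in these sets in both libraries. The 13 H2CKO cells held Nppa at 105 CPM (64.9 to 160.3) against 254 CPM in the 22 control cells. Without the 2 highest cells of each library the levels were 60.4 and 30.5 CPM. With all 3 genes Nppa was at 61.6 CPM in H2CKO, from 7 UMIs, and at 27.1 CPM in the control, from 5 UMIs (fold 2.28, 0.622 to 9.10). Erythroid cells were at 69.3 CPM of Nppa in H2CKO and at 21.6 CPM in the control, so these levels are near those of free RNA in each library and no direction is read from them. Stard10 was at 35.0 and 89.5 CPM with at least 2 genes and at 44.0 and 21.6 CPM with all 3, from 5 and 4 UMIs (fold 2.03, 0.437 to 10.2), in H2CKO and control. Acta1 was at 94.9 and 269 CPM, and at 61.6 and 92.0 CPM with all 3. Cav1 was at 105 and 129 CPM. Hand2 was at 99.9 CPM (61.0 to 154) in H2CKO and at 175 CPM (139.5 to 217) in the control, a fold of 0.571 (0.332 to 0.939), and the fold was 0.682 (0.328 to 1.34) with all 3.

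**Figure D5:**
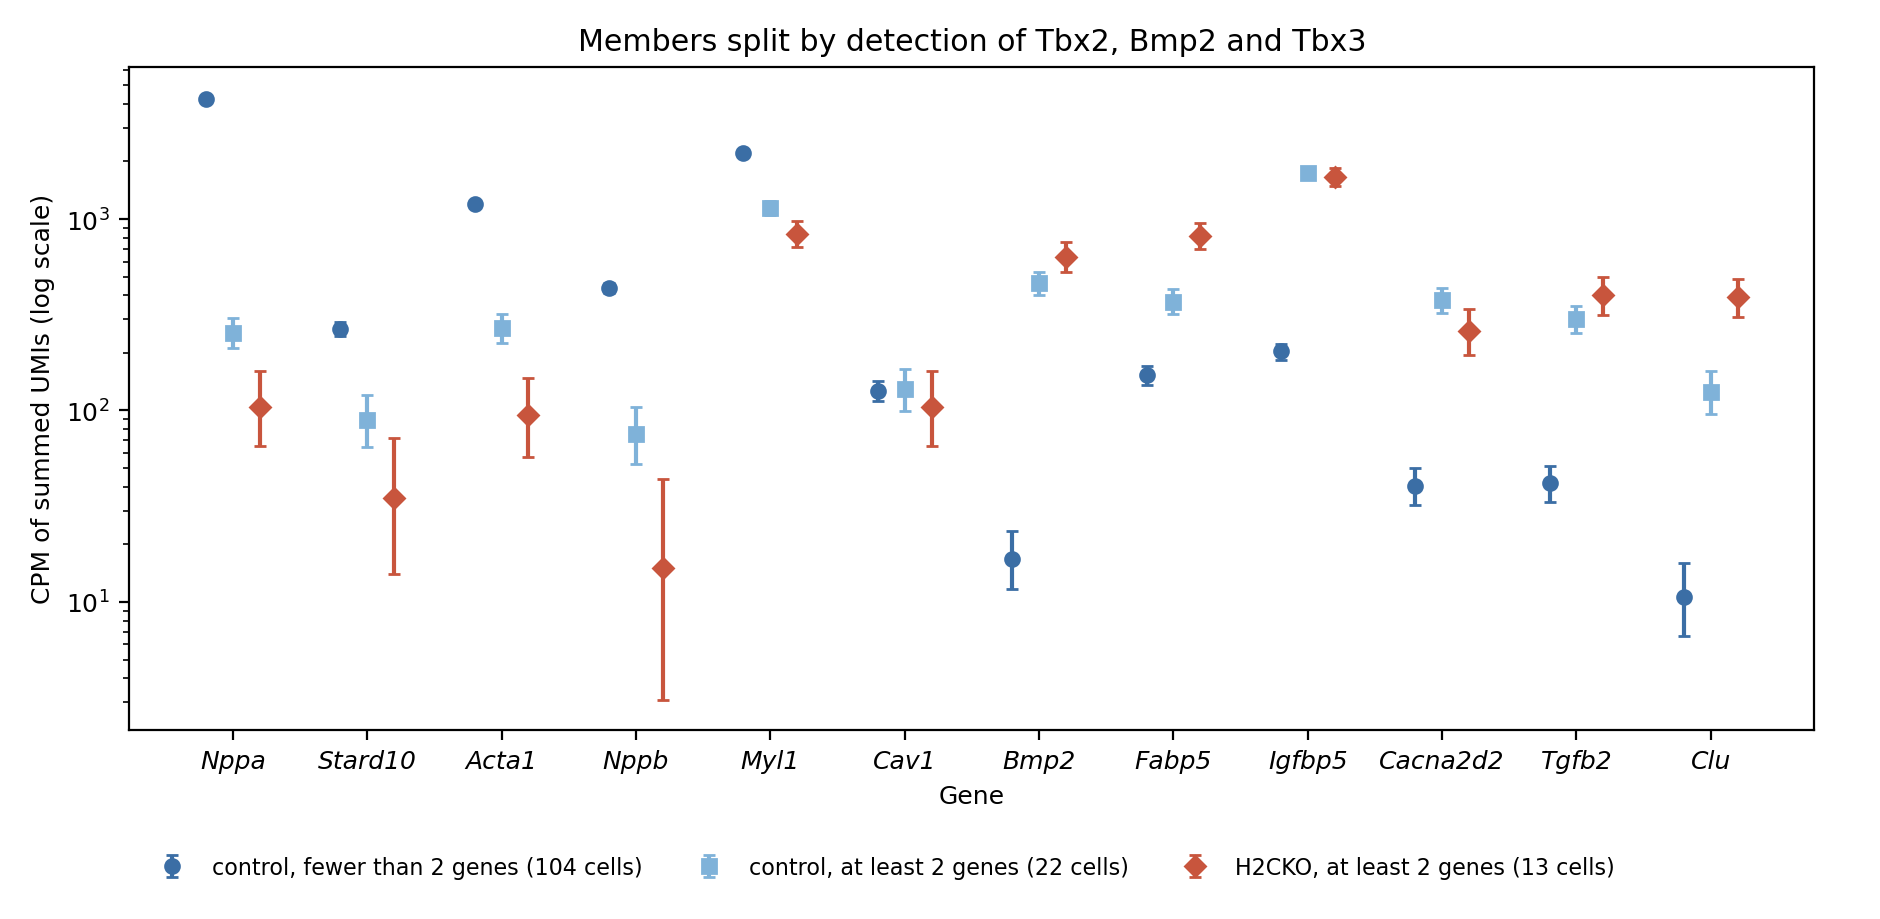
CPM of summed UMIs on a log axis for 12 genes in control cells with fewer than 2 of Tbx2, Bmp2 and Tbx3 detected (circles), control cells with at least 2 (squares) and H2CKO cells with at least 2 (diamonds); bars are 95% exact Poisson intervals. For Igfbp5, Tgfb2 and Cacna2d2 the squares sit near the diamonds and far above the circles. For Clu the diamond, at 389.6 CPM, is above the square at 125 CPM. Without the 3 highest cells of each set, of 13 in H2CKO and 22 in the control, these levels are 72.9 and 48.3 CPM.

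Markers of other cells differed in level, the erythroid genes being the highest, and differed between libraries. The 7 mesenchymal genes summed to 137 CPM in the control cells, with all 7 detected, and to 17.6 CPM in H2CKO, where Postn, Col1a1, Col1a2 and Pdgfra were at 0; in single control cells the sum ranged from 0 to 3331 CPM with a median of 0. Ventricular-like cells showed the same direction, at 119 and 31.8 CPM. The 7 endothelial genes not used by the rule summed to 24.6 and 57.2 CPM, and in H2CKO only Kdr and Klf2 were detected. The 6 erythroid genes summed to 3448 and 4156 CPM, reached 25488 CPM in 1 control cell, and were at 2934 and 3694 CPM in ventricular-like cells. The 4 smooth muscle genes summed to 446 and 193 CPM, nearly all from Cnn1. White blood cell and foregut genes were each at 2.73 CPM in the control and at 0 in H2CKO, and the 6 epicardial genes at 36.3 and 8.80 CPM. The part of these transcripts in the differences above was not tested.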

How the data were processed

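UMI counts per gene and barcode were deposited by the authors for 1 library per genotype, with no normalisation, together with a pair of embedding coordinates, a score without a unit, for some of the barcodes. Per the submitters' processing notes, the genome build was GRCm38.p6 and the tools were Cell Ranger 5.0.1 and Seurat 4; their order, settings and the filter behind the embedded subset are not given in the sources used here. Embedded cells had at least 2501 genes (control) or 2002 genes (H2CKO). Of 22401 features, 22285 matched a gene symbol by Ensembl ID. Coordinates are from GENCODE vM21 on GRCm38.

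The cells, gene lists and comparisons were chosen with earlier results of these data known. UMIs were summed over the cells of a class in a library and divided by all UMIs of those cells (CPM). Ratios were taken on log2 of CPM plus 5. Genes with at least 20 CPM and 20 UMIs in the higher group were compared, and those whose ratio was 1 or more, or -1 or less, were counted as past 2-fold. A 95% interval beside a level is exact Poisson, beside a share Clopper-Pearson, and beside a fold it is conditional on the total (scipy 1.17.1). They cover counting error only. No p-value was computed. No doublet caller decided which cells were kept; Scrublet scores (scanpy 1.11.5) served an alternative. Named genes were the 10 highest and 10 lowest ratios of H2CKO over control, the 12 with the highest and the 12 with the lowest smaller-sized ratio against ventricular-like cells in both libraries, and the 5 on each side whose ratios differed most between both kinds of cell. Genes of the rule, reporters, haemoglobin, mitochondrial, ribosomal and sex-linked genes were not named by it. The split by Tbx2, Bmp2 and Tbx3 was chosen after seeing the data. The ratio and the thinning were tested on simulated data. Alternatives covered the rule's limits, depth, doublets, scaling, pseudocount and minimum.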

Additional observations from a re-analysis of the deposited data

Results flagged for a closer look

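The log2 ratio of H2CKO over control had opposite signs past 2-fold in member cells and in ventricular-like cells for 2 named or listed genes. Nppa was at -2.42 in member cells and at 1.51 in ventricular-like cells. Tmem163, which encodes a zinc-binding membrane protein of vesicles, was at -1.14 and 1.06, with 142 CPM in control member cells, 61.6 CPM in H2CKO member cells, 7.08 CPM in control ventricular-like cells and 20.2 CPM in H2CKO ventricular-like cells. With 1 library per genotype these differences were not tested.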

How the results depend on the processing

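With 1 library per genotype no test was possible, and depth limits the H2CKO cells most, where 3 UMIs correspond to 13.2 CPM. The difference in share of embedded cells, H2CKO minus control, was -2.09 percentage points. It was -0.684 with a sarcomere limit of 5% (37 control cells and 0 H2CKO cells, so gene counts could not be computed), -1.50 with cells thinned to 5000 UMIs, -1.21 with all deposited barcodes, -0.198 with only cells in which at least 2 of Tbx2, Bmp2 and Tbx3 were detected and -0.0541 with all 3, alternatives chosen after seeing the data. The 97 genes higher in H2CKO became 60 with at least 2 NR2F UMIs, 22 with thinned cells, 188 when centred on the median gene, 587 with no minimum, 31 with at least 2 of the 3 genes and 34 with all 3. The 480 lower genes became 308 when centred, 81 with a minimum of 100 CPM, 1176 with no minimum and 213 with all 3 genes. The 20 genes higher than in ventricular-like cells became 13 with at least 2 NR2F UMIs, 5 with thinned cells, 72 with no minimum, 57 with at least 2 of the 3 genes and 40 with all 3. The 28 lower ones became 57 with thinned cells, 8 with a minimum of 100 CPM, 52 with no minimum, 61 with at least 2 of the 3 genes and 124 with all 3. The 308 genes whose ratio differed between both kinds of cell became 43 with a minimum of 100 CPM, 1526 with no minimum, 191 with at least 2 of the 3 genes and 125 with all 3. The minimum sets how many genes are compared; for the other settings the cause was not tested. Sign changes were counted only for genes past 2-fold as reported and past the minimum under the alternative. Of 825 recomputed values of named genes, 4 changed sign, each with all 3 genes: Bmp2 to -0.00904, Tbx3 to -0.72, Tgfb2 to -0.63, and for Clu the difference from ventricular-like cells to -0.0701. Of 2081 for genes of the lists, 10 did, 4 with at least 2 of the 3 genes (Cacna2d2 to -0.53, Hopx to 0.32, Id2 to -0.03 and Igfbp5 to -0.07) and 6 with all 3 (Bmp2 and Tbx3 as above, Cacna2d2 to -0.69, Ccnb1 to -0.03, Id2 to -0.09 and Igfbp5 to -0.51). Genes past 2-fold between libraries that fell under the minimum gave 96 further values, 11 of them of opposite sign: 8 with all 3 genes (Ccdc80 -0.62, Cited1 2.65, Gja1 0.51, Gja5 1.46, Hopx 1.31, Igfbp2 1.95, Nppa 1.05 and Stard10 0.88), 2 with at least 2 (Casq1 0.08 and Igfbp2 0.06) and 1 with thinned cells (Junb -2.44). No paired analysis was possible because each genotype has 1 library.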
